A study of Rattus norvegicus with 18 samples.

Results

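The miRNAs described here were the entries of the deposited count table named rno-miR-142, rno-miR-150, rno-miR-155 or rno-miR-223, any arm, and they numbered 8 of 909 entries. They were the 3p and 5p arms of each of 4 hairpins, of which 5 (rno-miR-142-3p, rno-miR-142-5p, rno-miR-150-5p, rno-miR-155-5p and rno-miR-223-3p) were taken as the main arms. Small RNA of gastrocnemius muscle was sequenced in 18 libraries, 1 per rat, all from male Brown Norway rats. Young AL (replicates 1 to 6) were aged 6 months and old AL (replicates 7 to 12) 28 months, both with free access to food. Old CR (replicates 13 to 18) were also aged 28 months and had been held from 2 months of age at 55% of what rats with free access ate. The comparisons asked which miRNAs differed with age, and how far caloric restriction moved old muscle away from old AL and towards young AL.

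Leukocytes carry a small set of miRNAs that muscle fibres make little of. Their level in muscle can be read as that of blood-derived cells in the tissue, a reading that was not tested here. miR-142 is made in nearly all haematopoietic cells and hardly elsewhere, and both of its arms are loaded. miR-150 is abundant in mature lymphocytes, where it restrains Myb. miR-155 is processed from the transcript of a non-coding host gene and is induced when lymphocytes and macrophages are activated, and Socs1 and Inpp5d are among its best-known targets. miR-223 marks the myeloid line, in particular neutrophils and monocytes, and dampens Nlrp3. In bulk muscle, fewer cells of a type and less RNA per cell cannot be told apart.

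The mature sequences of 6 of the 8 entries were matched by name in the RefSeq table of the GRCr8 assembly and are shown because the seed, bases 2 to 8 in capitals, sets which transcripts a miRNA pairs with. The arms of miR-150 are named only.
rno-miR-142-3p: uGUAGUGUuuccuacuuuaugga
rno-miR-142-5p: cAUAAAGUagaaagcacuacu
rno-miR-155-3p: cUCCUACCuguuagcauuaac
rno-miR-155-5p: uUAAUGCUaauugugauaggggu
rno-miR-223-3p: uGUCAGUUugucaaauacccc
rno-miR-223-5p: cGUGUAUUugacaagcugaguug
The 6 sequences had 6 distinct seeds, and 0 other mature names of the table shared any of them, so that the entries do not stand in for one another through a shared seed. In GRCr8 the hairpin of Mir142 lies on the plus strand at chr10:73055104-73055190, that of Mir155 at chr11:37261114-37261178 and that of Mir223 at chrX:65151383-65151492.

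The libraries held 34940346 to 83110905 counts. The miR-1 family, the most abundant of muscle, took 60.7 to 86.8% of them, and the scaling factors (TMM) that allow for this ranged from 0.656 to 2.08. The level of a miRNA is its CPM, the count per M of the TMM-scaled library total. The striated muscle miRNAs rno-miR-1-3p, rno-miR-133a-3p and rno-miR-206-3p were present at means of 94537, 16811 and 7821 CPM over the 18 libraries, so that the markers of the labelled tissue were present.

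The 8 entries differed widely in level. rno-miR-150-5p was the highest, at 129 ± 24.9 CPM (SD, n = 6) in young AL. Next came rno-miR-155-5p at 8.18 ± 2.41 CPM and rno-miR-142-5p at 6.54 ± 1.72 CPM, followed by rno-miR-142-3p at 3.53 ± 1.83 CPM and rno-miR-223-3p at 3.11 ± 0.604 CPM. Neighbours in this order below rno-miR-150-5p differed by less than the sum of their SDs. The other arms were low, with young AL means of 0.889 CPM for rno-miR-150-3p, 0.613 CPM for rno-miR-223-5p and 0.0249 CPM for rno-miR-155-3p, and the last of these rested on 0 to 5 counts per young library. A library with a count of 0 may hold up to 3 counts. This limit is one of counting error alone, because the reads carried no molecular identifiers and may repeat a molecule.

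In both old groups a single library stood far above the other 5 for miR-142 and miR-155. These were old AL replicate 8 and old CR replicate 18. Both lay inside the range of the other libraries in depth and scaling, with totals of 61122946 and 68906287 counts, TMM factors of 1.36 and 1.23, and 75.2% of counts on the miR-1 family in each. Their factors were at the upper end of that range. The factor of 1.23 was the highest of old CR, and in old AL only replicate 7 (2.08) was above 1.36. The young AL group had no such library for any of the 5 main arms.

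rno-miR-142-3p ranged from 1.45 to 6.75 CPM in young AL (median 3.03), from 1.68 to 70.0 CPM in old AL (median 2.30) and from 0.40 to 25.9 CPM in old CR (median 2.58). The highest value in each old group was the library named above, and the next highest were 3.22 CPM in old AL and 5.30 CPM in old CR. The counts behind the 2 high values were 5835 and 2184, against 22 in old CR replicate 15, the lowest library. The 3 group medians therefore lay close together while the group means were 3.53 ± 1.83, 13.6 ± 27.6 and 6.48 ± 9.62 CPM (SD, n = 6).

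rno-miR-142-5p, the other arm of the same hairpin, ranged from 4.09 to 8.82 CPM in young AL (median 6.73), from 8.31 to 139 CPM in old AL (median 10.2) and from 4.00 to 47.6 CPM in old CR (median 6.75). The same libraries were highest. Apart from them, old AL lay at 8.31 to 13.8 CPM, so that 5 of the 6 old AL libraries were above every young AL library and the sixth was inside the young range. The old CR libraries other than replicate 18 lay at 4.00 to 9.20 CPM, across the young range. These positions held with TMM scaling. With library totals old AL replicates 9, 11 and 12, at 7.40, 9.05 and 7.93 CPM, lay inside the young AL range of 4.78 to 9.39 CPM.

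rno-miR-155-5p ranged from 4.78 to 11.5 CPM in young AL (median 8.23), from 4.56 to 79.8 CPM in old AL (median 7.00) and from 5.43 to 32.4 CPM in old CR (median 10.3). Old AL replicate 8 and old CR replicate 18 were again the highest, with 9.61 and 2.67 times the next library of their group. The passenger arm rno-miR-155-3p had 30 counts in old AL replicate 8 and 20 in old CR replicate 18, and 0 to 5 in each of the other 16 libraries. Both arms of miR-155 therefore picked out the same libraries, although the 3p arm was at or near the limit of 3 counts elsewhere.

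rno-miR-150-5p, named above as abundant in lymphocytes, ranged from 95 to 154 CPM in young AL (median 135), from 87.9 to 312 CPM in old AL (median 118) and from 91.5 to 167 CPM in old CR (median 117). How much of it came from lymphocytes in this muscle was not tested. Old AL replicate 8 was the highest here too, at 2.18 times the next old AL library, or 1.43 times with library totals. Old CR replicate 18 was not, at 128 CPM against 167 CPM in old CR replicate 15. rno-miR-150-3p ranged from 0.532 to 1.31, 0.693 to 2.65 and 0.575 to 1.45 CPM in the 3 groups, with the highest value again in old AL replicate 8.

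rno-miR-223-3p, the myeloid miRNA, was the steadiest of the main arms with TMM scaling. With library totals it ran from 2.67 to 9.95 CPM in old AL, highest in replicate 7. With TMM scaling it ranged from 2.32 to 4.13 CPM in young AL (median 3.02), from 3.65 to 4.79 CPM in old AL (median 3.94) and from 2.20 to 4.80 CPM in old CR (median 3.74). Old AL replicate 8 had 4.75 CPM and old CR replicate 18 had 4.11 CPM, both inside the range of the other 16 libraries. rno-miR-223-5p lay at 0.383 to 1.41, 0.463 to 1.5 and 0.491 to 1.10 CPM, and its highest young AL library, replicate 4, had 2.39 times the next one.

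**Figure D1:**
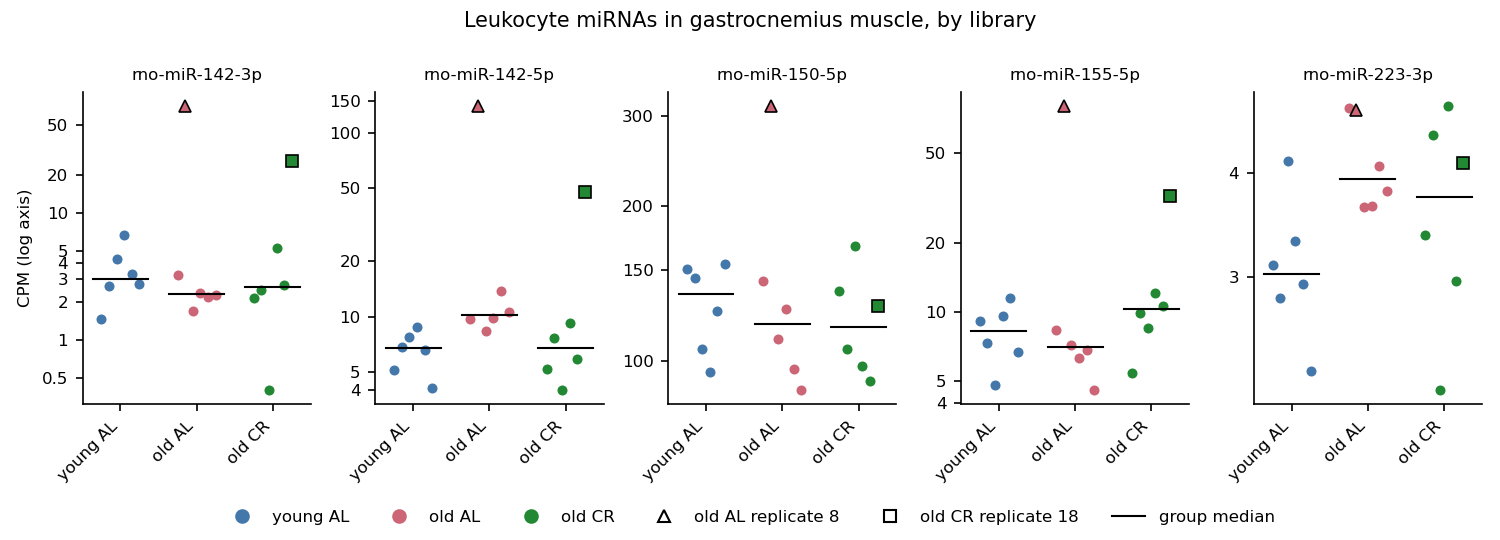
CPM on a log axis of the 5 main arms in each of the 18 libraries, by group, with the group median as a bar and the 2 libraries that stood apart drawn as a triangle (old AL replicate 8) and a square (old CR replicate 18). For rno-miR-142-3p these lie at 70.0 and 25.9 CPM while all other libraries lie at 0.40 to 6.75 CPM, and for rno-miR-223-3p they lie among the others.

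Set against the median of the other 16 libraries, old AL replicate 8 had 27.5 times the rno-miR-142-3p, 18.1 times the rno-miR-142-5p, 10.2 times the rno-miR-155-5p, 2.65 times the rno-miR-150-5p and 1.35 times the rno-miR-223-3p. The same multiples in old CR replicate 18 were 10.2, 6.20, 4.15, 1.08 and 1.17. Among these 5 main arms the order in both libraries was miR-142, then miR-155, with miR-150 and miR-223 least. The low arm rno-miR-155-3p stood at 12.1 and 7.95 times, the latter above rno-miR-142-5p. With library totals in place of TMM the multiples for rno-miR-142-3p were 38.6 and 12.8. These libraries were picked out by the values themselves, so the multiples are a description.

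Of the 591 entries with at least 10 counts in the 2 libraries together, 33 were higher in both of them than in each of the other 16, and 4 of these were members (both arms of miR-142 and of miR-155). Among the rest were rno-miR-342-3p, which is abundant in lymphoid cells, at 21.5 and 8.11 CPM against at most 4.32 CPM elsewhere, and rno-miR-146a-5p, an inhibitor of NF-kB signalling in immune cells, at 552 and 343 CPM against at most 304 CPM. The skin and epithelial miRNA rno-miR-203a-5p was also among them, at 21.0 and 11.6 CPM against at most 6.38 CPM. A pair of candidates predicted by miRDeep2 were counted in these libraries alone, with 1131 and 537 counts for one and 26 and 12 counts for the other. rno-miR-148a-3p was also among the 33, at 6431 and 9195 CPM against at most 5266 CPM. From the list of other leukocyte and inflammation miRNAs below, both arms of miR-342 and of miR-146a, and miR-147, were among the 33. Both arms of miR-21, miR-146b and miR-511 were not. rno-miR-21-5p had 2.34 and 1.45 times the median of the other 16 libraries, and rno-miR-146b-5p 1.34 and 0.959 times. The entries of this paragraph outside miR-142 and miR-155 were chosen after their values were seen.

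How far these libraries carried the group means was read from the mean with each library left out. Old AL replicate 8 held 85.7% of the summed CPM of rno-miR-142-3p in old AL, and without it the mean was 2.34 ± 0.560 CPM (SD, n = 5), 5.83 times lower. It held 72.7% of rno-miR-142-5p, where the mean without it was 10.5 ± 2.04 CPM, and 70.7% of rno-miR-155-5p, where the mean without it was 6.63 ± 1.37 CPM. For rno-miR-142-3p and rno-miR-155-5p the old AL mean thus went from above to below the young AL mean, and for rno-miR-142-5p it stayed above it.

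Old CR replicate 18 held 66.5% of rno-miR-142-3p, 59.9% of rno-miR-142-5p and 41.0% of rno-miR-155-5p in old CR. Without it the means were 2.60 ± 1.76, 6.37 ± 2.06 and 9.33 ± 2.54 CPM (SD, n = 5). The first and second of these were below the young AL mean and the third was above it.

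rno-miR-150-5p rested less on 1 library, with 35.7% of the old AL sum in replicate 8 and a mean of 113 ± 22.3 CPM without it, against 146 ± 84.0 CPM with it. For rno-miR-223-3p the highest library of each group held 19.4 to 22.2%, close to an even share, and the means of 3.11 ± 0.604, 4.12 ± 0.528 and 3.65 ± 0.979 CPM stayed between 2.90 and 4.21 CPM whichever library was left out. This held with TMM scaling. With library totals old AL replicate 7 held 34.2% of the old AL sum, and the old AL mean was 4.85 CPM with it and 3.83 CPM without it. Over all entries with a mean of at least 1 CPM over the 18 libraries and counted in the group, the highest library held a median of 23.3% of the sum in young AL (374 entries), 22.6% in old AL (374) and 22.9% in old CR (376). Leaving it out moved the mean by over 1.5 times for 6.95%, 12.0% and 8.78% of these entries, and for 0 of 6, 3 of 6 and 2 of 6 of the members above that level. Over all members it was 8 of the 24 means, which were those of both arms of miR-142 in both old groups, of rno-miR-155-5p in old AL and of rno-miR-155-3p in all 3 groups.

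**Figure D2:**
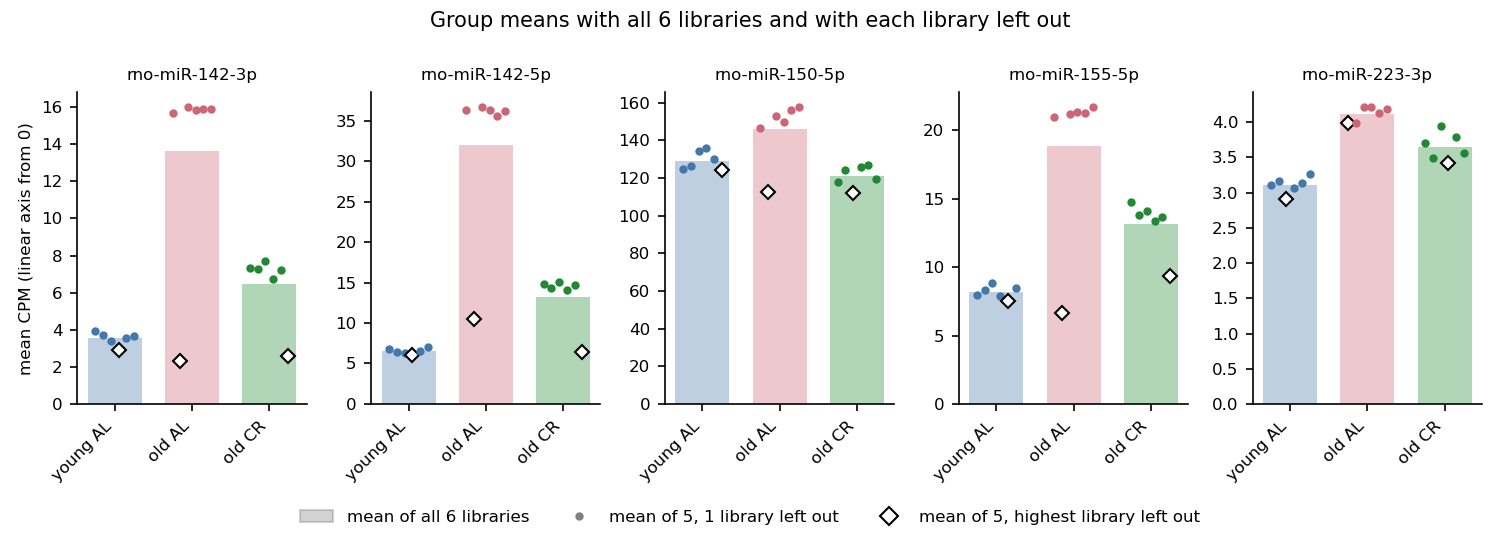
Mean CPM of the 5 main arms in each group on a linear axis from 0, with all 6 libraries (bars), with 1 library left out (points) and with the highest library left out (diamonds). The old AL bar of rno-miR-142-3p stands at 13.6 CPM and its diamond at 2.34 CPM, while bars and points of rno-miR-223-3p nearly coincide.

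For old AL against young AL, all 8 members had a fold change above 0 on the log2 scale, with a median of 0.78 against 0.06 over all entries, but 0 of 8 were called by edgeR's quasi-likelihood test (a fold change of 1.5 or more and a p of 0.05 or less after Benjamini-Hochberg adjustment), where 3.28% of the 732 entries tested were. Without old AL replicate 8, 4 were above and 4 below 0, and their median was -0.07. At an unadjusted p under 0.05 edgeR picked 2 of 8 members against 23.4% of all entries. These were rno-miR-142-5p and rno-miR-223-3p.

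The log2 fold change of rno-miR-142-5p was 2.25 (SE 0.745), with an edgeR adjusted p of 0.113 by the Benjamini-Hochberg method. Without old AL replicate 8 it was 0.70 (SE 0.209), with an edgeR adjusted p of 0.0897, a smaller estimate with a smaller error. That of rno-miR-223-3p was 0.40 (SE 0.152; edgeR adjusted p 0.153) and it lay between 0.33 and 0.50 with any library left out. A single library turned over the estimates of rno-miR-142-3p and rno-miR-155-5p. rno-miR-142-3p stood at 1.90 (SE 1.01; edgeR adjusted p 0.273) with all libraries and at -0.58 (SE 0.320) without old AL replicate 8, and rno-miR-155-5p at 1.16 (SE 0.701; edgeR adjusted p 0.339) and -0.30 (SE 0.233).

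rno-miR-150-5p differed little, with a log2 fold change of 0.15 (SE 0.286; edgeR adjusted p 0.831) that was -0.20 without old AL replicate 8. The low arms rno-miR-150-3p, rno-miR-155-3p and rno-miR-223-5p stood at 0.27, 1.64 and 0.33, and at -0.18, 0.20 and 0.05 without that library. DESeq2 called 0 of 8 members and 11.5% of all entries, and gave no p for rno-miR-142-3p, rno-miR-142-5p and rno-miR-155-5p because its Cook's distance filter set them aside for an extreme count. With that filter off, an alternative added after seeing the data, it called 13.7% of all entries and 1 member, rno-miR-142-5p, at a log2 fold change of 2.28 and a DESeq2 adjusted p of 0.00706.

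For old CR against young AL, 7 of 8 members were above 0 with a median log2 fold change of 0.48 against 0.08 over all entries, and 0 of 8 were called by edgeR, where 9.32% of 730 entries were. The members reached an unadjusted p under 0.05 in 0 of 8 cases against 25.5% of all entries. DESeq2 called 0 of 8 members, with its Cook's distance filter (which left rno-miR-142-5p without a p) against 14.9% of all entries and without it against 18.1%. The highest estimates were those of rno-miR-155-3p at 1.37 (SE 0.886), rno-miR-142-5p at 1.01 (SE 0.584; edgeR adjusted p 0.308), rno-miR-142-3p at 0.87 (SE 0.805; edgeR adjusted p 0.579) and rno-miR-155-5p at 0.68 (SE 0.391; edgeR adjusted p 0.307). Without old CR replicate 18 they were 0.41, -0.04, -0.44 and 0.18, and 5 of 8 members were above 0 with a median of 0.15. rno-miR-223-3p stood at 0.22 (SE 0.217) with all libraries and at 0.19 without that one.

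For old CR against old AL, all 8 members were below 0 with a median log2 fold change of -0.27 against 0.01 over all entries, and 0 of 8 were called by edgeR, where 0.272% of 736 entries were. An unadjusted p under 0.05 was reached by 0 of 8 members and by 12.0% of all entries. DESeq2 called 0 of 8 members, against 2.58% of all entries with its Cook's distance filter, which left both arms of miR-142 and rno-miR-155-5p without a p, and 3.40% without it. It gave no adjusted p for rno-miR-155-3p with or without that filter. This comparison had a high library on each side. The log2 fold change of rno-miR-142-3p was -1.06 (SE 1.24) with all libraries, 1.48 (SE 0.857) without old AL replicate 8, -2.37 (SE 1.23) without old CR replicate 18 and 0.17 (SE 0.507) without both, an alternative added after seeing the data. For rno-miR-155-5p the same 4 values were -0.51, 1.0, -1.0 and 0.50.

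rno-miR-142-5p differed from its sister arm here, at -1.26 (SE 0.931) with all libraries and -0.71 (SE 0.255; edgeR adjusted p 0.399) without both high libraries, since the other old AL libraries lay above most of the other old CR libraries. Without both, 6 of 8 members were above 0 with a median of 0.15. The fold changes of old AL and old CR against young AL share the 6 young AL libraries and are given side by side only.

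**Figure D3:**
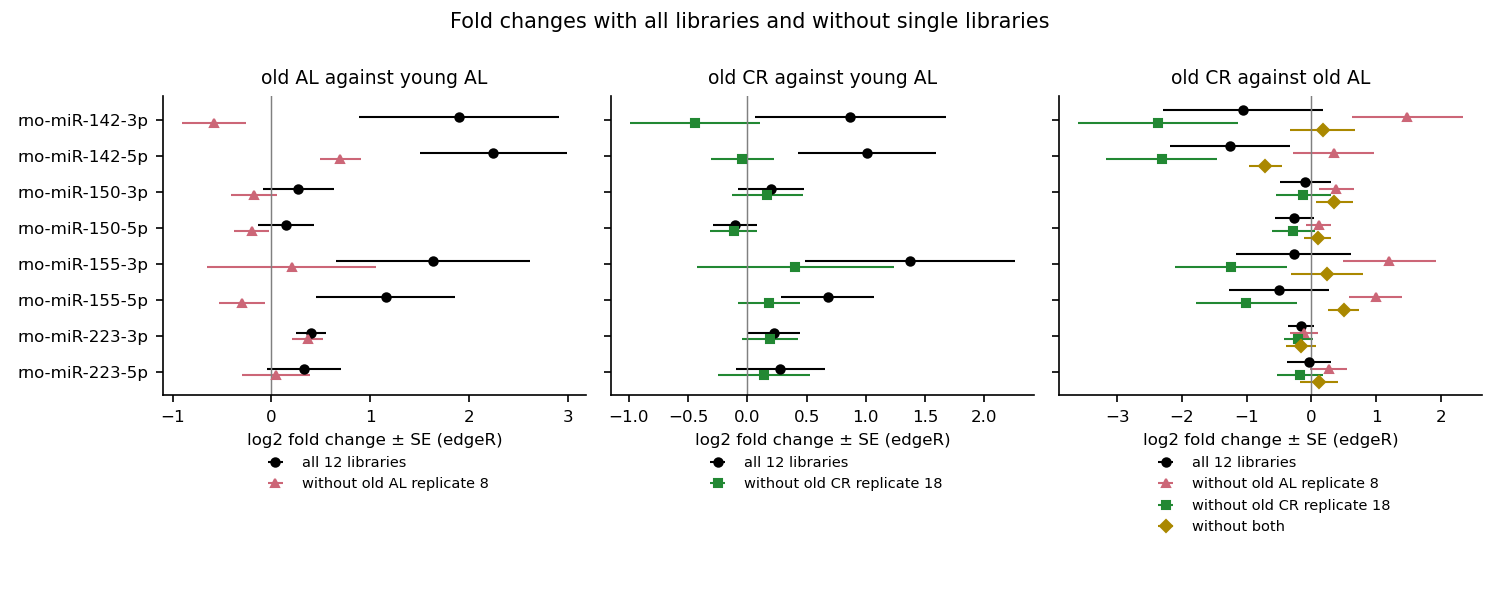
Log2 fold change with its SE from edgeR for the 8 members in each comparison, with all 12 libraries (black) and without old AL replicate 8 (triangles), old CR replicate 18 (squares) or both (diamonds). In old AL against young AL rno-miR-142-3p moves from 1.90 to -0.58 and rno-miR-223-3p from 0.40 to 0.37 when old AL replicate 8 is left out.

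Ratios of counts within a library do not depend on the scaling and show whether the members varied in step. A ratio of counts is not a ratio of molecules, so that ratios are compared between libraries only. The ratio of rno-miR-142-5p to rno-miR-142-3p lay at 1.31 to 3.50 in young AL (median 1.89), at 1.99 to 6.31 in old AL (median 4.44) and at 1.73 to 9.80 in old CR (median 2.28). In old AL 4 of 6 libraries lay above every young AL library, and old AL replicate 8 had the lowest ratio of its group. The mean log2 ratio was 1.97 ± 0.592 in old AL and 1.0 ± 0.525 in young AL (SD, n = 6), a difference of 0.98 with a two-sided exact permutation p of 0.0195, which did not pass the Benjamini-Hochberg adjustment over 15 tests (adjusted p 0.292). Without old AL replicate 8 the difference was 1.17 (exact permutation p 0.00866, adjusted p 0.130). The old CR ratio of 9.80 was that of replicate 15, where rno-miR-142-3p had 22 counts.

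The ratio of rno-miR-223-3p to rno-miR-142-3p lay at 0.492 to 2.12 in young AL, 0.0679 to 2.17 in old AL and 0.159 to 5.40 in old CR. The lowest values of the series were those of old AL replicate 8 and old CR replicate 18, where rno-miR-142-3p was high and rno-miR-223-3p lay among the other libraries. The ratio of rno-miR-155-5p to rno-miR-142-3p lay at 1.11 to 6.27, 1.14 to 4.27 and 1.25 to 20.9, and these libraries were the lowest of their groups but above the lowest young AL library. Of 15 ratio tests (5 ratios in 3 comparisons), 0 passed the adjustment and 1 had an exact permutation p under 0.05, and the smallest p that the arrangements of 6 against 6 libraries allow is 0.00216.

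**Figure D4:**
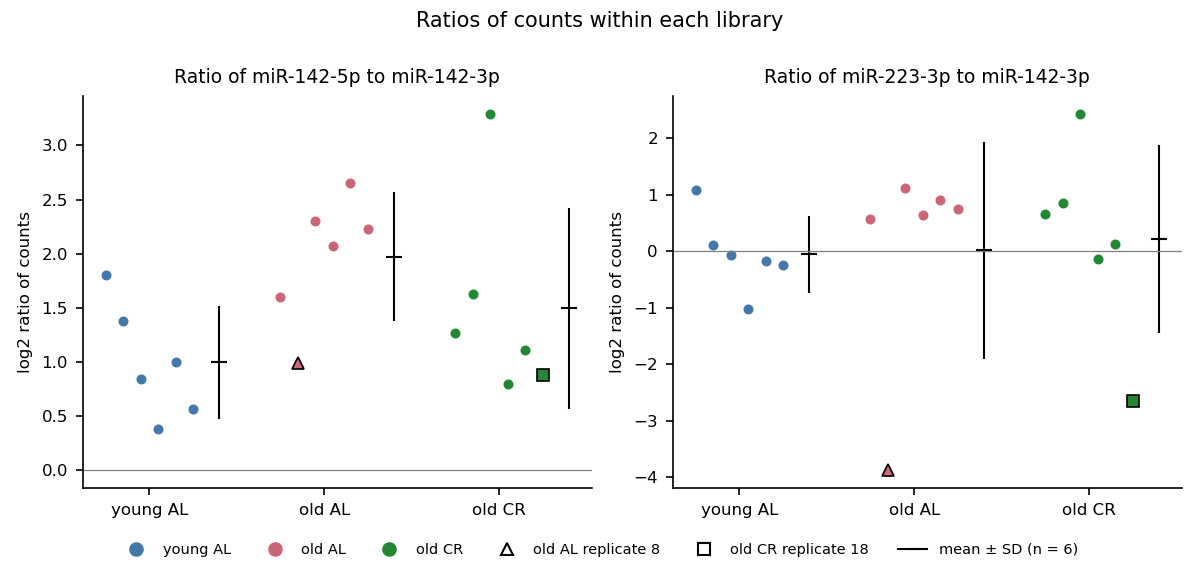
Log2 ratios of counts within each library for rno-miR-142-5p to rno-miR-142-3p and for rno-miR-223-3p to rno-miR-142-3p, by group, with the mean ± SD of 6 libraries beside the points. Old AL replicate 8 (triangle) and old CR replicate 18 (square) have the lowest ratios of rno-miR-223-3p to rno-miR-142-3p, at 0.0679 and 0.159 before taking logs.

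Across the 18 libraries, 6 of the 10 pairs of main arms passed the adjustment on Pearson's r of log2 CPM (permutation test, 100000 resamples, Benjamini-Hochberg over 10 pairs) and 1 passed on Spearman's rho. The members of a library share its scaling factor. The arms of miR-142 had r = 0.876 (permutation p 0.00017, adjusted 0.0017) and rho = 0.463 (permutation p 0.0555, adjusted 0.185), and without the 2 libraries farthest from the median, old AL replicate 8 and old CR replicate 18, r was 0.460. rno-miR-142-3p and rno-miR-155-5p had r = 0.798 (permutation p 0.00117, adjusted 0.00585) and rho = 0.519 (permutation p 0.0299, adjusted 0.149), and r was 0.116 without those libraries. rno-miR-142-5p and rno-miR-155-5p had r = 0.823 (permutation p 0.00207, adjusted 0.0069) and rho = 0.143 (permutation p 0.569, adjusted 0.633), and r was -0.139 without them. Without the 2 libraries 0 of these 3 relations passed (adjusted permutation p of r 0.117, 0.854 and 0.854), so that on this scale they rested on them. As deviations from the group means, which take out the differences between groups, r was 0.937, 0.821 and 0.892 with these libraries. It was 0.783, 0.343 and 0.476 when they were dropped afterwards. The group means still included them, so the latter values keep part of the differences between groups and may be too high. With library totals r was 0.901, 0.835 and 0.863 with these libraries and 0.589, 0.393 and 0.351 without them. The arms of miR-142 had the highest r of the 3 in each of these settings.

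The pair that passed on both measures was rno-miR-142-5p and rno-miR-223-3p, with r = 0.611 (permutation p 0.00621, adjusted 0.0155) and rho = 0.736 (permutation p 0.00068, adjusted 0.0068). Without the 2 libraries r was 0.784. As deviations from the group means, r was 0.497 (permutation p 0.0400, adjusted 0.0667) and rho 0.616 (permutation p 0.00767, adjusted 0.0192). For rno-miR-142-5p and rno-miR-150-5p the sign depended on the 2 libraries, with r = 0.445 (permutation p 0.0758, adjusted 0.108) and rho = -0.286 (permutation p 0.248, adjusted 0.497) over 18 libraries, and r = -0.664 (permutation p 0.00544, adjusted 0.0272) over 16.

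**Figure D5:**
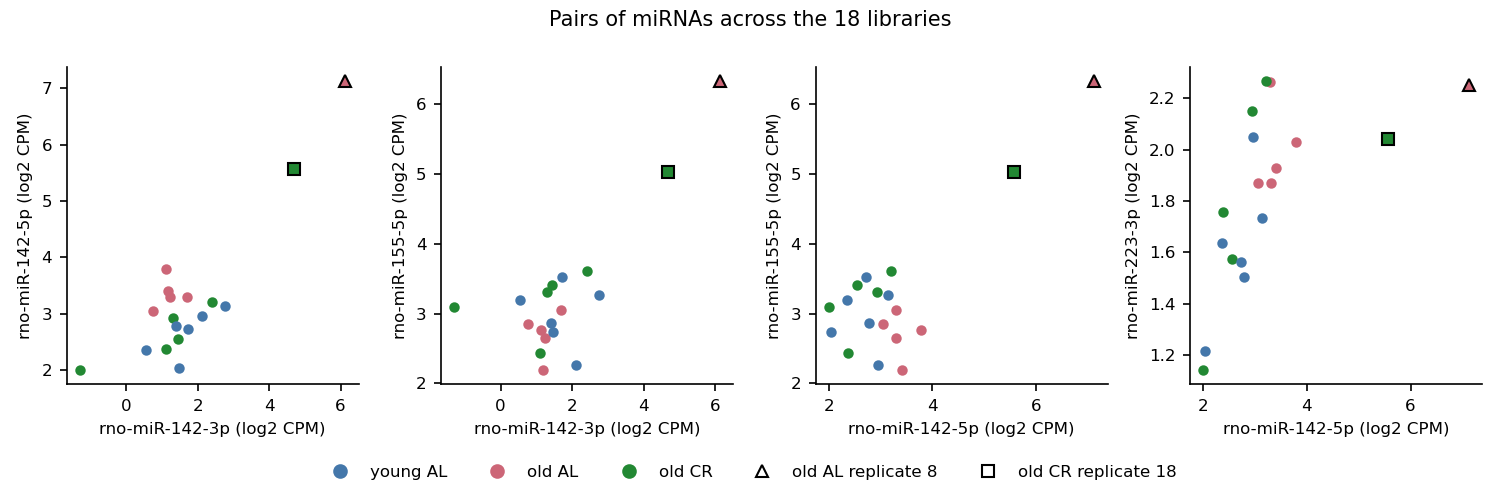
Log2 CPM of 4 pairs of members in the 18 libraries, each point a library, coloured by group. In the first 3 panels old AL replicate 8 (triangle) and old CR replicate 18 (square) lie alone at the upper right of a loose cloud, where r is 0.876, 0.798 and 0.823 with them and 0.460, 0.116 and -0.139 without them, and in the last the other libraries also slope upwards.

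The miRNAs whose pattern over the 18 libraries was most like that of each main arm, among 315 known miRNAs of at least 1 CPM, are given by Spearman's rho of log2 CPM. For rno-miR-142-3p they were rno-miR-455-5p (rho 0.90), rno-miR-450b-5p (0.83) and rno-miR-140-5p (0.82). For rno-miR-142-5p they were rno-miR-21-5p (rho 0.87), rno-miR-3559-5p (0.82) and rno-miR-146b-5p (0.76), and for rno-miR-223-3p rno-miR-21-5p (0.70), rno-miR-148b-3p (0.69) and rno-miR-3559-5p (0.65). For rno-miR-150-5p they were rno-miR-125a-5p (rho 0.78), rno-miR-15b-5p (0.76) and rno-miR-99b-3p (0.76), and for rno-miR-155-5p rno-miR-130a-3p (0.80), rno-miR-3590-5p (0.80) and rno-miR-187-3p (0.76). Of these 13 names, rno-miR-21-5p and rno-miR-146b-5p belong to the list of other leukocyte and inflammation miRNAs below. rno-miR-130a-3p and rno-miR-3590-5p had the same rho and means of 4.31 and 4.23 CPM, and whether they share reads was not tested. One candidate predicted by miRDeep2, noticed after its values were seen, had nearly the counts of rno-miR-142-5p in every library (at most 10.4% apart, totals of 21507 and 23110).

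Other miRNAs of leukocytes and inflammation (miR-146a, miR-146b, miR-21, miR-147, miR-342 and miR-511, any arm, 11 entries) also went uncalled, 0 of 11 by edgeR in each comparison. In old AL against young AL 11 of 11 were above 0, with a median log2 fold change of 0.27 against 0.06 over all entries. At an unadjusted p under 0.05 edgeR picked 3 of 11, against 23.4% of all entries. Without old AL replicate 8, 8 of 11 were above 0 with a median of 0.23. The most abundant were rno-miR-21-5p at 980 ± 269, 1542 ± 597 and 1127 ± 372 CPM in young AL, old AL and old CR, rno-miR-146a-5p at 195 ± 32.1, 328 ± 111 and 241 ± 58.8 CPM, and rno-miR-146b-5p at 66.6 ± 13.0, 80.2 ± 11.1 and 66.2 ± 14.8 CPM (SD, n = 6). rno-miR-146a-5p came nearest to a call, at a log2 fold change of 0.74 (SE 0.194; edgeR adjusted p 0.0652) in old AL against young AL. It was called by edgeR with filterByExpr (adjusted p 0.0368), among known miRNAs only (0.0243) and in 1 fit over 3 groups (0.0432). miR-21 and miR-146 are also made outside the blood lineage, so their levels in muscle do not count leukocytes alone. In old CR against young AL 9 of 11 were above 0 (median 0.30), and in old CR against old AL 4 of 11 (median -0.20).

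The summed level of that list was 3211 CPM in old AL replicate 8, the highest of the 18 libraries, and 1993 CPM in old CR replicate 18, the third highest, against 894 to 2238 CPM in the others. Most of the sum in these 2 libraries was rno-miR-21-5p, at 2539 and 1571 CPM, which is also made outside the blood lineage. Red-cell miRNAs (miR-144 and miR-451, 4 entries, led by rno-miR-451-5p) summed to 11.8 and 9.50 CPM in these libraries, ranks 1 and 4, against 3.43 to 9.95 CPM in the others. Endothelial miR-126 entries (3, led by rno-miR-126a-3p) summed to 7275 and 6809 CPM, ranks 3 and 4, against 3819 to 8050 CPM. Epithelial entries (14, led by rno-miR-203a-3p) summed to 387 and 192 CPM, ranks 2 and 3, against 29.2 to 1952 CPM. Striated muscle entries (15, of which 1 was at 0 in every library) summed to 75177 and 94760 CPM, ranks 17 and 15.

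The multiples over the median of the other 16 libraries were 1.82 and 1.44 for rno-miR-451-5p, 1.45 and 1.35 for rno-miR-126a-3p and 27.5 and 10.2 for rno-miR-142-3p. They were 2.65 and 1.08 for rno-miR-150-5p and 1.35 and 1.17 for rno-miR-223-3p. The red-cell and endothelial entries named thus stood far below rno-miR-142-3p but not below rno-miR-223-3p. Among the epithelial entries they were 15.0 and 8.26 for rno-miR-203a-5p, 12.9 and 7.86 for rno-miR-203b-3p, 5.83 and 2.38 for rno-miR-203a-3p, 0.862 and 2.48 for rno-miR-200b-3p and 2.56 and 1.83 for rno-miR-205. For rno-miR-203b-5p they were 6.69 and 2.10. The multiples of rno-miR-203a-5p and rno-miR-203b-3p were thus near those of rno-miR-142-5p (18.1 and 6.20), and those of the other epithelial entries named were lower. Nerve entries (4, led by rno-miR-9a-5p) summed to 30.5 and 97.0 CPM, ranks 6 and 2, and liver miR-122 entries (2) to 49.4 and 121 CPM, ranks 12 and 9. The multiples were 1.35 and 4.51 for rno-miR-9a-5p, 2.55 and 4.56 for rno-miR-124-3p, 1.24 and 4.45 for rno-miR-200a-3p and 0.395 and 0.963 for rno-miR-122-5p. Those of rno-miR-9a-5p, rno-miR-124-3p and rno-miR-200a-3p were near that of rno-miR-155-5p in old CR replicate 18 (4.15) and well below it in old AL replicate 8 (10.2). Between old CR and young AL the edgeR test called 4 of 4 nerve and 2 of 2 liver entries, and 0 of 13 epithelial (10 at an unadjusted p under 0.05), 0 of 12 striated muscle, 0 of 3 red-cell and 0 of 3 endothelial entries tested (0 at that p in each of the last 3 lists). Of all 730 entries tested there, 9.32% were called and 25.5% had an unadjusted p under 0.05. In the other 2 comparisons the edgeR test called 0 entries of any list. The part of other cell types in the 2 libraries was not tested.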

How the data were processed

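Total RNA of gastrocnemius muscle was made into small RNA libraries with the NEBNext kit and sequenced by the authors. They removed adapters with Cutadapt 1.2.1, trimmed by quality with Sickle, kept reads of at least 12 nt, ran miRDeep2 for known miRNAs and for predicted candidates, and deposited raw counts per miRNA, which their methods attribute to featureCount. The submitters' processing notes also name Rnor_6.0 and Bowtie2 2.4.0. Not given in the sources used here are the miRBase release, whether strand was used, and how multi-mapping reads were counted, so that reads of rno-miR-142-5p shared with a predicted candidate cannot be apportioned. All columns were matched to samples by their labels.

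The whole table was fitted with edgeR 4.0.16 in R 4.3.3 (quasi-likelihood test, robust, TMM factors, two-sided, Benjamini-Hochberg over all entries tested) pair by pair on the 12 libraries compared, using entries with at least 10 counts in total. Calls needed a fold change of 1.5 or more and an adjusted p no higher than 0.05. The SE is the log2 fold change divided by the square root of F. DESeq2 1.42.0 was the alternative. CPM values use TMM factors over 18 libraries, and log2 values and ratios a prior count of 0.5. The scripts were tested on simulated data. Libraries totalled 34940346 to 83110905 counts. Tests between groups set a difference against the spread between rats, 6 per group when no library was left out. The p-values of correlations came from permuting the 18 libraries over all 3 groups, or the 16 without the 2 high ones. The labels give no batch.

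Members, lists and alternatives were chosen with earlier results of these data known. Named entries were the members, some of the most abundant entries of the lists, the 3 known miRNAs of highest rho to each main arm, and others chosen after their values were seen. Among the latter were rno-miR-203a-5p, rno-miR-203b-3p and rno-miR-200b-3p. Not all called entries of the lists are named. Alternatives were other scaling factors, filters and tools, 1 fit over 3 groups, and libraries left out. Target predictions, RT-qPCR and cell culture are not analysed here.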

Additional observations from a re-analysis of the deposited data

Results flagged for a closer look

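In 11 of the 24 sets of 6 libraries (8 members in 3 groups), 1 library was separated from the rest by more than Dixon's 95% critical value, taken as the gap to the nearest library divided by the range of CPM. Chance gives this in about 1 of 20 sets of normally distributed values, but in these data it was commoner, at 7.75%, 21.1% and 13.0% of all entries of at least 1 CPM in young AL, old AL and old CR, against 0 of 6, 5 of 6 and 3 of 6 of the members above that level. The libraries were first noticed by these same values, so the counts are a description. In old AL the library was replicate 8 each time, with values of 0.977 for rno-miR-142-3p, 0.958 for rno-miR-142-5p, 0.950 for rno-miR-155-5p, 0.919 for rno-miR-155-3p, 0.792 for rno-miR-150-3p and 0.754 for rno-miR-150-5p. In old CR it was replicate 18, with 0.808 for rno-miR-142-3p, 0.881 for rno-miR-142-5p, 0.829 for rno-miR-155-3p and 0.751 for rno-miR-155-5p. In young AL it was replicate 4, with 0.80 for rno-miR-223-5p. The members of a library are not independent of one another.

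Among all entries with a mean of at least 1 CPM over the 18 libraries, old AL replicate 8 was separated upwards in this way for 36 of 374 entries (9.63%), the most of any library, old AL replicate 7 for 19 (5.08%) and old CR replicate 18 for 12 of 376 (3.19%). The other 15 libraries had 1 to 10 each.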

How the results depend on the processing

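For old AL against young AL the edgeR test called 24 entries, against 0 with library totals, 13 with totals without the miR-1 family, 37 with filterByExpr, 53 among known miRNAs only, 38 in 1 fit over 3 groups, 84 with DESeq2, 100 with DESeq2 without its Cook's distance filter and 9 to 20 with 1 library left out. For old CR against young AL it called 68, against 109 and 132 with DESeq2 and 45 to 67 with 1 library left out. In old CR against old AL it called 2, against 19 and 25 with DESeq2, 0 to 3 with 1 library left out, and 0 with upper-quartile factors, with totals with or without the miR-1 family, among known miRNAs only, without robust estimation, and without both high libraries. The only call of a member among these settings was rno-miR-142-5p with DESeq2 without the filter (2.28). The median of all entries lay at 0.23, -0.05 and -0.27 with library totals, and the sign of each member's log2 fold change was the same under all scaling factors tried.

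With 1 library left out, log2 fold changes changed sign as follows. In old AL against young AL rno-miR-142-3p ran from -0.58 to 2.16, rno-miR-150-3p from -0.18 to 0.42, rno-miR-150-5p from -0.20 to 0.26 and rno-miR-155-5p from -0.30 to 1.36, each lowest without old AL replicate 8. In old CR against young AL rno-miR-142-3p ran from -0.44 to 1.17 and rno-miR-142-5p from -0.04 to 1.24, lowest without old CR replicate 18, and rno-miR-150-5p was 0.016 without young AL replicates 1 and 2. In old CR against old AL rno-miR-142-3p ran from -2.37 to 1.48, rno-miR-142-5p from -2.31 to 0.34, rno-miR-150-3p from -0.24 to 0.39, rno-miR-150-5p from -0.40 to 0.11, rno-miR-155-3p from -1.24 to 1.21, rno-miR-155-5p from -1.0 to 1.0 and rno-miR-223-5p from -0.20 to 0.27, each highest without old AL replicate 8. Without both high libraries they were 0.17 for rno-miR-142-3p, 0.35 for rno-miR-150-3p, 0.095 for rno-miR-150-5p, 0.24 for rno-miR-155-3p, 0.50 for rno-miR-155-5p and 0.12 for rno-miR-223-5p.

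On rho, 1 of 10 pairs passed, against 6 with library totals and 4 as deviations from group means. Without the high libraries r was -0.529 for rno-miR-142-3p and -0.664 for rno-miR-142-5p with rno-miR-150-5p, -0.139 for rno-miR-142-5p and -0.043 for rno-miR-223-3p with rno-miR-155-5p, and -0.0045 for rno-miR-150-5p with rno-miR-155-5p (-0.079 without the 2 libraries farthest from the median). For rno-miR-150-5p and rno-miR-223-3p r was -0.090, and 0.619 with library totals. Why these values moved was not tested beyond the libraries left out. Depth limits rno-miR-155-3p, at 0 to 5 counts in 16 libraries. No paired analysis was possible because the groups share no replicate number.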
